A study of Homo sapiens with 8 samples.

Results

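MYC is a transcription factor of the basic helix-loop-helix leucine zipper class that binds DNA only as a pair with MAX. The network around MAX in this report held 9 genes chosen by symbol, namely MYC, MAX, MXD1, MXD3, MXD4, MXI1, MNT, MGA and MLX, of 63967 gene labels in the expression table. Values could be placed for 8 of the 9 and for 18143 labels in all. MXD3 has a label beyond the last one that could be placed and is given no value. RNA-seq was made from Raji, a Burkitt lymphoma line sensitive to the CD20 antibody rituximab, and from Raji-4RH, its resistant derivative raised by repeated rituximab exposure. Cells received DMSO or 3 μM chidamide, an inhibitor of class I and class IIb histone deacetylases, for 24 h, with 2 libraries in each of the 4 groups. Each line is a single cell line, and the labels do not say whether the 2 libraries of a group came from separate cultures, so the p-values measure only the spread between these samples.

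In Burkitt lymphoma a chromosomal translocation places MYC under immunoglobulin enhancers, so the transcript is abundant and the cells grow fast. MYC:MAX pairs bind the E-box, whose core letters are CACGTG, and recruit coactivators such as acetyltransferases. MXD1, MXD3, MXD4 and MXI1 (also called MXD2) compete for MAX and for the same sites, and they recruit the SIN3 corepressor with histone deacetylases, the enzymes that chidamide inhibits. MNT does the same in most growing cells, MGA pairs with MAX inside a Polycomb complex, and MLX is a MAX-like partner for MXD1, MXD4, MNT and the glucose-sensing Mondo factors.

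The gene positions are those of GENCODE v29 on GRCh38. MAX lies at chr14:65006174-65102695 on the minus strand and MLX at chr17:42567068-42573239 on the plus strand. The MXD-type genes are MXD1 at chr2:69897688-69942945 (plus), MXD3 at chr5:177301461-177312757 (minus), MXD4 at chr4:2247432-2262294 (minus) and MXI1 at chr10:110207605-110287365 (plus). MNT lies at chr17:2384060-2401118 (minus) and MGA at chr15:41621224-41773081 (plus). Opposite-strand genes cover 18.1% of the exon bases of MLX (PSMC3IP) and 12.2% of those of MNT (the antisense gene AC006435.1). The strand setting of the counting is not given in the sources used here, so reads from these pairs cannot be told apart, while the other placed members share at most 4.45% of their exon bases.

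The E-box is the sequence that MYC and its competitors read, and 3 of 8 members searched carry it themselves just upstream of a RefSeq start site. Those 8 include MXD3 but not MYC, for which no promoter window was available. CACGTG reads the same on both strands, and 6.345% of 35116 RefSeq promoters (GRCh38.p14) hold it within 250 bases before the start. It begins 238 bases before the start in MXD4, 193 bases before it in MNT and 50 bases before it in MLX. The GC box GGGCGG, searched on both strands, is in a window of all 8 members searched, which have 13 windows in all, and in 42.64% of all promoters. For both motifs a member was counted if any of its windows held the motif. These counts are therefore not on the same footing as the shares of promoters. The parts of the 3 windows with an E-box that lie upstream of the first annotated exon are printed 5′ to 3′ below. The window of MXD1 is added, as MXD1 rose with chidamide and has no E-box. E-boxes and GC boxes are in capitals, and a match describes the letters only.
MXD4, chr4:2262295-2262359, minus strand: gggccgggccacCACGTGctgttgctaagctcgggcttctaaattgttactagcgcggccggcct
MNT, chr17:2401119-2401310, minus strand: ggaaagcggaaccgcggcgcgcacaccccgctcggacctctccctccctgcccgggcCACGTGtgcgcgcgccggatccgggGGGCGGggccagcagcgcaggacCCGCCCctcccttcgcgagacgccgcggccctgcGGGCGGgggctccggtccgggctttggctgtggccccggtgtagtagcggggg
MLX, chr17:42566850-42567067, plus strand: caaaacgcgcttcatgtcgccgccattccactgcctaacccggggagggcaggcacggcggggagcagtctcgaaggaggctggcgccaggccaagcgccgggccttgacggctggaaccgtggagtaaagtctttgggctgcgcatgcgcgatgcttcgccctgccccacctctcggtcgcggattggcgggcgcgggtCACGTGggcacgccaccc
MXD1, chr2:69914859-69915040, plus strand: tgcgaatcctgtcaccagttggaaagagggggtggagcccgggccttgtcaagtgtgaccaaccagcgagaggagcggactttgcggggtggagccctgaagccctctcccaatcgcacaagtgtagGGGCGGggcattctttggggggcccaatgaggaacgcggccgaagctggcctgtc

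Expression is given as FPKM, the reads of a gene scaled to exon length and to the library total. The length of each member is that of all its annotated exons, not of the transcript made, so levels compare only roughly between genes. Differences are log2 fold changes of FPKM + 1 from limma, with the standard error (SE), and a gene was called at a Benjamini-Hochberg adjusted p under 0.05 over 10710 genes tested. The libraries held 13991697 to 21193441 reads, with the lowest total in Raji-4RH chidamide replicate 1. The replicates of Raji-4RH chidamide also differed most, with a chi-square per degree of freedom of 15.9 over genes, against 1.83 to 5.54 in the other groups. Labels and values are out of step in the deposited table: 6 members had values in their own row, MYC 1 row below its label and MGA 5 rows below. All 9 B cell marker genes, CD79A and CD79B among them, had at least 1 FPKM in some library. They summed to 1198 to 1243 FPKM in Raji DMSO and 1074.5 to 1087 FPKM in Raji chidamide. The sums were 802 to 844 FPKM in Raji-4RH DMSO and 651 to 682 FPKM in Raji-4RH chidamide. Of 15 marker genes of other blood cells and stroma, 12 could be placed. Their summed level was 3.28 to 4.13 FPKM in the DMSO libraries and 12.5 to 18.7 FPKM in the chidamide libraries, with 6 of the 12 under 1 FPKM in every library and 0 of them at 0 throughout. The part of this rise, and of the lower B cell marker sums with chidamide, in the results below was not tested.

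MYC, at chr8:127735434-127741434 on the plus strand, was by far the most abundant member, and its transcript was not called with chidamide in either line. In Raji it stood at 169.5 and 155 FPKM in DMSO and at 169 and 169.5 FPKM with chidamide. In Raji-4RH it stood at 186 and 198 FPKM in DMSO and at 151 and 181 FPKM with chidamide. The treated and untreated libraries overlapped in Raji and lay apart in Raji-4RH, where both treated libraries were below both DMSO libraries. The log2 fold change was 0.06 (SE 0.089, limma adjusted p = 0.578) in Raji and -0.21 (SE 0.089, adjusted p = 0.0586) in Raji-4RH, and neither was called. The difference of these effects, -0.27 (SE 0.13), was not called either (adjusted p = 0.105). Without Raji-4RH chidamide replicate 2, the higher of that group, the value in Raji-4RH was -0.34 and the difference of effects -0.41. Both then rest on 1 treated Raji-4RH library. With each library left out in turn, they ran from -0.34 to -0.080 and from -0.41 to -0.14. The value in Raji-4RH was called without treated replicate 2, with median-centred libraries (-0.29, adjusted p = 0.0134) and with limma voom on recovered reads (-0.21, adjusted p = 0.0318). In 15 of 18 alternatives it was not called, as in the main fit. Over all 18 it ran from -0.34 to 0.007, so the fall was not present under every setting. The difference of effects ran from -0.41 to 0.073.

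Ordered by mean, MYC ran from 162 FPKM in Raji DMSO over 166 FPKM in Raji-4RH chidamide and 169 FPKM in Raji chidamide to 192 FPKM in Raji-4RH DMSO. The ranges of the 3 lower groups overlapped, and only Raji-4RH DMSO lay above all libraries of the others. Between the untreated lines MYC was higher in Raji-4RH by 0.24 on the log2 scale (SE 0.089, adjusted p = 0.0371). This call was lost with quantile normalization (adjusted p = 0.0510), with median-centred libraries (0.0636), with no filter on low values (0.0786), and when any of 5 libraries was left out (adjusted p from 0.0636 to 0.199). Those 5 were Raji DMSO replicate 2, which gave the lowest difference of 0.18, both Raji chidamide libraries and both Raji-4RH DMSO libraries.

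**Figure D1:**
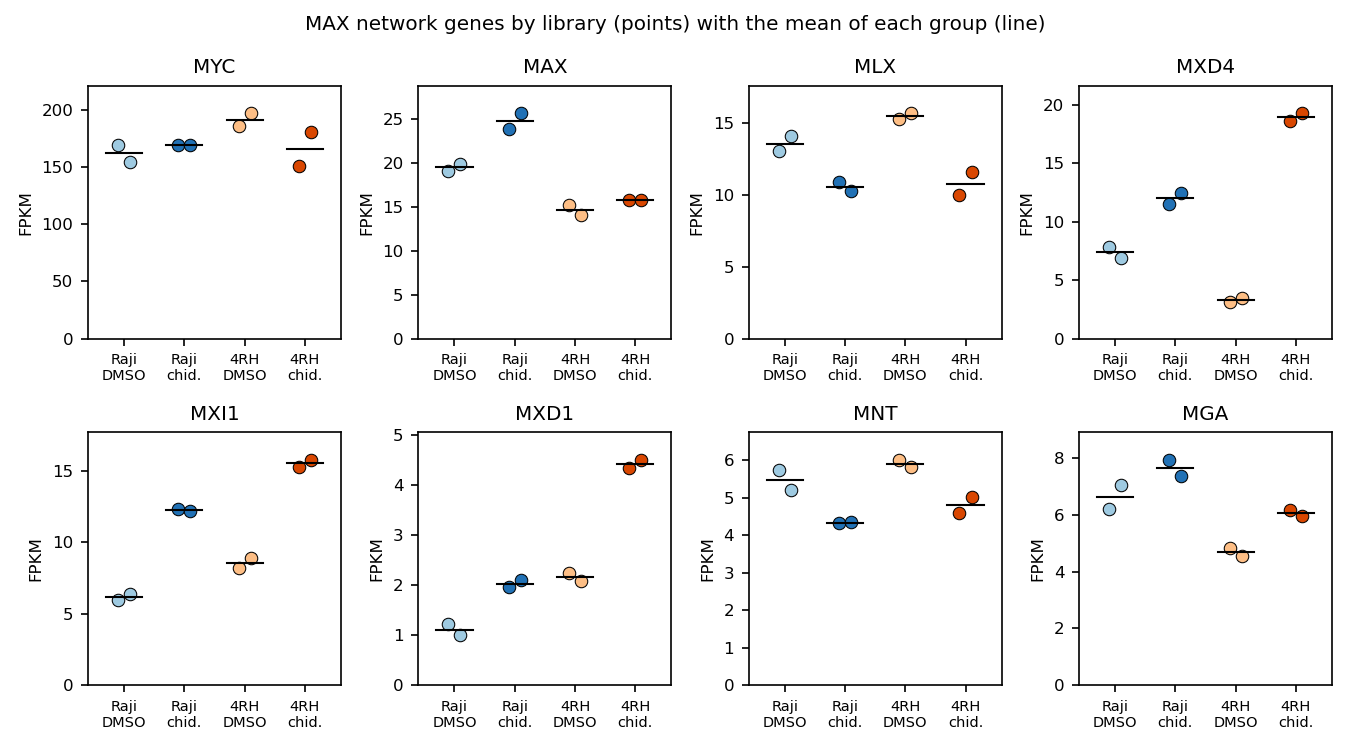
FPKM of the 8 placed MAX network genes in each library, with 1 panel per gene and its own axis from 0. Points are libraries and lines are group means (n = 2), with chid. for chidamide and 4RH for Raji-4RH. MXD4, MXI1 and MXD1 sit higher with chidamide in both lines, while MYC stays between 151 and 198 FPKM in all 8 libraries.

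MAX, the obligate partner, rose with chidamide in Raji and was lower in the resistant line. Raji cells had 19.1 and 19.9 FPKM with DMSO and 23.9 and 25.6 FPKM with chidamide. Raji-4RH cells had 15.2 and 14.1 FPKM with DMSO and 15.7 FPKM in both treated libraries. Every Raji library was above every Raji-4RH library. The log2 fold change with chidamide was 0.33 in Raji (SE 0.059, adjusted p = 0.00153). In Raji-4RH it was 0.10 (SE 0.059) and not called (adjusted p = 0.155), but was called at 0.22 after quantile normalization (adjusted p = 0.0129). The difference of the effects, -0.23 (SE 0.084), missed the threshold (adjusted p = 0.0506) and passed it with median-centred libraries (-0.26, adjusted p = 0.0286). MAX was lower in untreated Raji-4RH than in untreated Raji by 0.39 on the log2 scale (value -0.39, adjusted p = 0.000375).

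Chidamide raised all 3 measured genes of the MXD type in both lines, with the largest rise in MXD4 in Raji-4RH and in MXI1 in Raji. With chidamide, 4 members rose and 2 fell in each line, so 6 of 8 were called. Of all genes tested, 74.9% were called in Raji-4RH and 60.0% in Raji, so the number of members called is near that of genes in general. The upward calls were MXD1, MXD4 and MXI1 in both lines, with MGA in Raji-4RH and MAX in Raji. The downward calls in both lines were MNT and MLX. The median log2 fold change of the 8 members was 0.21 in Raji-4RH and 0.26 in Raji, beside 0.093 and 0.017 for all genes tested.

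MXD4, a MAX partner linked to cell cycle exit and differentiation, had the largest change of the network in Raji-4RH. Raji cells had 7.86 and 6.93 FPKM with DMSO and 11.5 and 12.5 FPKM after treatment. In Raji-4RH they were 3.17 and 3.46 FPKM in DMSO and 18.6 and 19.3 FPKM with chidamide. The untreated resistant cells thus had the lowest MXD4 of all groups, and the treated resistant cells the highest, with no overlap between any of the 4 groups. Mean FPKM rose 5.72-fold in Raji-4RH and 1.62-fold in Raji. On the log2 scale the change was 2.21 in Raji-4RH (SE 0.074, adjusted p = 8.5e-08) and 0.63 in Raji (SE 0.074, adjusted p = 0.000139). The 2 effects differed by 1.58 (SE 0.10, adjusted p = 1.8e-05), and before treatment MXD4 was lower in Raji-4RH (log2 difference -0.96, adjusted p = 5.5e-06). MXD4 was 1 of 8 members whose effect differed between the lines, whereas 48.8% of all genes tested differed.

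MXI1, a tumor suppressor candidate that antagonizes MYC, rose in both lines. It went from 5.97 and 6.38 FPKM to 12.3 and 12.2 FPKM in Raji, and from 8.19 and 8.87 FPKM to 15.3 and 15.8 FPKM in Raji-4RH. This was a log2 fold change of 0.89 in Raji (SE 0.059, adjusted p = 6.8e-06) and 0.80 in Raji-4RH (SE 0.059, adjusted p = 4.6e-06). The difference of -0.09 (SE 0.084) was not called (adjusted p = 0.383). Untreated Raji-4RH cells had more MXI1 than untreated Raji cells, by 0.41 on the log2 scale (adjusted p = 0.000284).

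MXD1, the first described MAD protein and a marker of terminal differentiation, was the least abundant placed member. Raji libraries had 1.21 and 1.01 FPKM in DMSO and 1.96 and 2.09 FPKM with chidamide. Raji-4RH libraries had 2.23 and 2.08 FPKM in DMSO and 4.34 and 4.51 FPKM with chidamide. The level in untreated Raji-4RH was thus about that of treated Raji, whose ranges overlap, and treated Raji-4RH was above all others. The log2 fold change was 0.52 in Raji (SE 0.068, adjusted p = 0.00027) and 0.78 in Raji-4RH (SE 0.068, adjusted p = 1.2e-05). The difference of 0.26 (SE 0.097) missed the threshold (adjusted p = 0.0534). It passed after quantile normalization (0.30, adjusted p = 0.0264) and in limma without trend (adjusted p = 0.0470). With each library left out in turn it ran from 0.19 to 0.33, the latter without Raji DMSO replicate 2. At baseline MXD1 was higher in Raji-4RH by 0.58 (adjusted p = 7.9e-05).

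**Figure D2:**
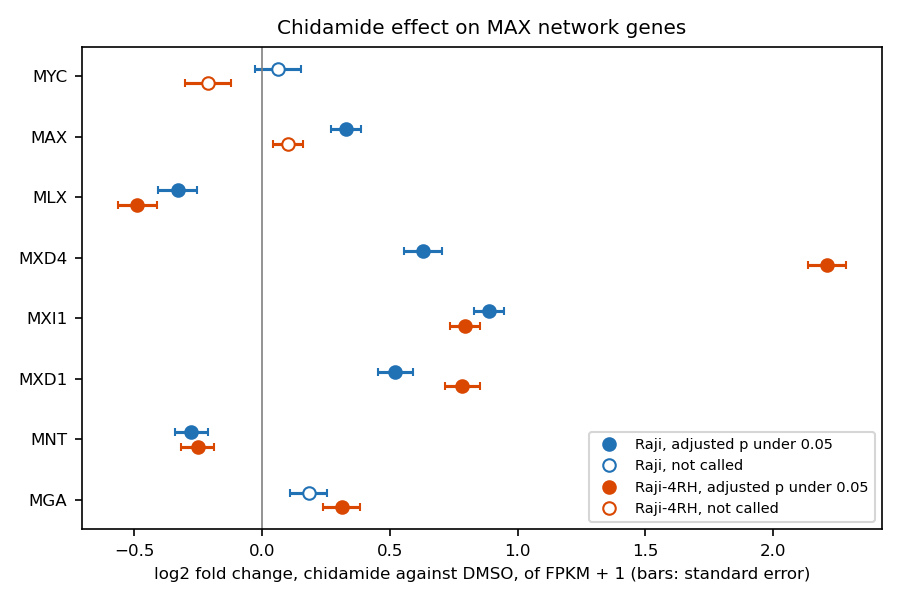
Log2 fold change of FPKM + 1 with chidamide against DMSO for the 8 placed genes, in Raji (blue) and Raji-4RH (orange). Bars are the standard error, filled points passed an adjusted p of 0.05, and open points did not. The points of the 2 lines lie far apart for MXD4 (0.63 and 2.21).

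MNT, the broadly expressed repressor partner, fell in both lines, against the direction of the MXD genes. It went from 5.73 and 5.21 FPKM to 4.33 and 4.34 FPKM in Raji and from 6.02 and 5.81 FPKM to 4.60 and 5.01 FPKM in Raji-4RH. The groups did not overlap within either line. These were log2 fold changes of -0.28 in Raji (SE 0.064, adjusted p = 0.00589) and -0.25 in Raji-4RH (SE 0.064, adjusted p = 0.00680), with a difference of 0.02 (SE 0.091, adjusted p = 0.841). Between the untreated lines the value was 0.10 (SE 0.064) and was not called (adjusted p = 0.205).

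MLX fell as well. Raji went from 13.03 and 14.1 FPKM to 10.9 and 10.3 FPKM, and Raji-4RH from 15.2 and 15.7 FPKM to 9.97 and 11.6 FPKM. All treated libraries were below all untreated ones. The log2 fold change was -0.33 in Raji (SE 0.075, adjusted p = 0.00528) and -0.49 in Raji-4RH (SE 0.075, adjusted p = 0.000396). Their difference, -0.16 (SE 0.11), was not called (adjusted p = 0.251). With each library left out in turn it ran from -0.26, without Raji-4RH chidamide replicate 2, to -0.060. At baseline MLX differed by 0.18 (SE 0.075, adjusted p = 0.0581), a value that passed the threshold with limma voom (adjusted p = 0.0338), in a fit of only the libraries compared (0.0247), and without either Raji-4RH chidamide replicate 1 (0.0152) or 2 (0.0153).

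MGA, the large scaffold that carries both a T-box and a MAX-binding domain, had 6.20 and 7.07 FPKM in untreated and 7.96 and 7.36 FPKM in treated Raji. In Raji-4RH it had 4.85 and 4.56 FPKM in DMSO and 6.17 and 5.98 FPKM with chidamide. Treated libraries were above untreated ones in both lines. The log2 fold change was 0.31 in Raji-4RH (SE 0.072, adjusted p = 0.00411), which lost its call after quantile normalization (0.18, adjusted p = 0.0592). In Raji it was 0.18 (SE 0.072) and missed the threshold (adjusted p = 0.0567), but was called with limma voom (0.21, adjusted p = 0.0238). With each library left out in turn the value in Raji ran from 0.10 to 0.27, the latter without Raji DMSO replicate 2. MGA was lower in untreated Raji-4RH (log2 difference -0.42, adjusted p = 0.000815).

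Between the untreated lines, 3 members were higher in Raji-4RH (MYC, MXD1 and MXI1), 3 were lower (MAX, MXD4 and MGA), and 2 were not called. Of all genes tested, 73.6% differed between the untreated lines, with 41.2% higher and 32.4% lower in Raji-4RH. Of the 3 MXD-type genes, which all rose with chidamide, MXD4 started lower in Raji-4RH and MXD1 and MXI1 started higher there.

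The repressor partners can be set against MYC itself by summing MXD1, MXD4, MXI1 and MNT in FPKM. Such sums and ratios between genes are rough, and they are of RNA and not of protein. The sum was 20.8 and 19.5 FPKM in untreated and 30.1 and 31.1 FPKM in treated Raji. In Raji-4RH it was 19.6 and 20.2 FPKM in DMSO and 42.8 and 44.6 FPKM with chidamide. The untreated lines thus overlapped, and both treated groups lay above them with Raji-4RH the higher. Per FPKM of MYC, the sum was 0.124 ± 0.0025 in untreated and 0.181 ± 0.0040 in treated Raji, and 0.104 ± 0.0021 in untreated and 0.265 ± 0.027 in treated Raji-4RH (SD, n = 2 each). The ratio stayed below 1 in every library, with more FPKM of MYC than of the 4 genes together in all 8 libraries. Per FPKM of MAX, the sum was 1.03 ± 0.075 and 1.24 ± 0.033 in Raji without and with chidamide, and 1.36 ± 0.099 and 2.78 ± 0.081 in Raji-4RH. MXD3 is not part of these sums, and with 2 libraries against 2 an exact permutation test of such a ratio cannot go below p = 0.333 (two-sided).

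The makeup of the sum differed between the lines too. MXD4 was 37.9% and 35.5% of it in untreated and 38.2% and 40.1% in treated Raji, but 16.1% and 17.1% in untreated and 43.4% and 43.2% in treated Raji-4RH. MNT made up 26.7% to 30.7% in the DMSO libraries and 10.8% to 14.4% in the chidamide libraries. The ratio of MYC to MAX was 8.88 and 7.79 in untreated Raji and 7.08 and 6.61 in treated Raji. In Raji-4RH it was 12.3 and 14.01 before and 9.58 and 11.5 after treatment.

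**Figure D3:**
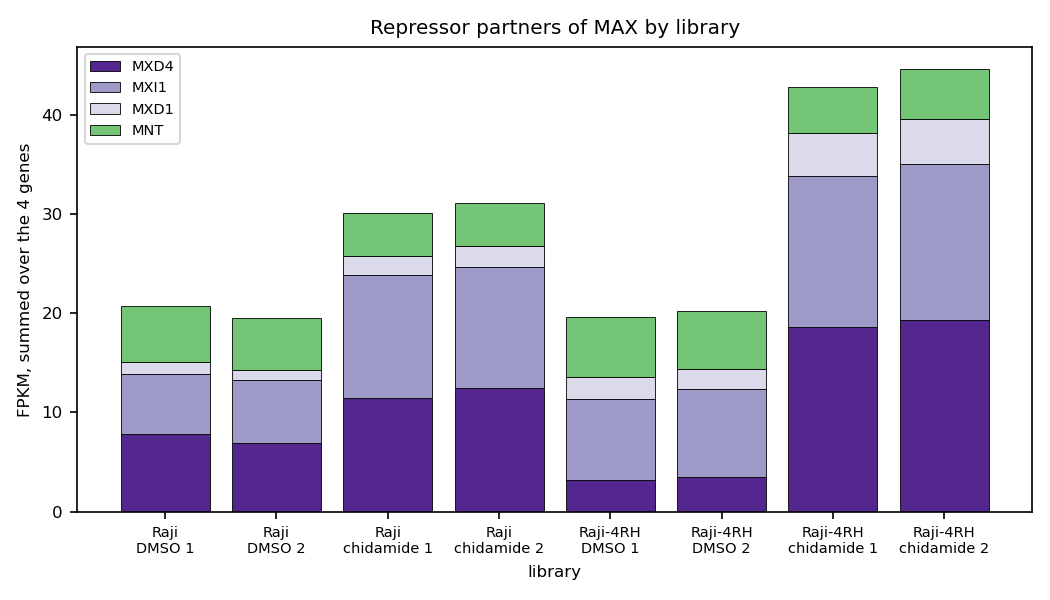
FPKM of MXD4, MXI1, MXD1 and MNT stacked for each of the 8 libraries, from 0. The sum is 19.5 to 20.8 FPKM in the 4 DMSO libraries, 30.1 and 31.1 FPKM in Raji chidamide, and 42.8 and 44.6 FPKM in Raji-4RH chidamide.

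Of 4 relatives outside the 9 members, 2 passed the filter on low values. MYCN, the neural MYC, and MLXIPL, the Mondo factor of liver, were not tested, since they did not reach 1 FPKM in 2 libraries. MYCL, a MYC relative that also pairs with MAX, rose from 0.808 ± 0.074 to 3.04 ± 0.15 FPKM in Raji and from 0.146 ± 0.057 to 1.75 ± 0.18 FPKM in Raji-4RH (SD, n = 2). Mean FPKM thus rose 3.77-fold in Raji and 11.998-fold in Raji-4RH. Its log2 fold change was 1.16 in Raji (adjusted p = 5.0e-06) and 1.26 in Raji-4RH (adjusted p = 1.1e-06), on a scale that understates changes of low genes. The difference of 0.10 (SE 0.10) between these effects was not called (adjusted p = 0.443), but was called with a pseudocount of 0.1 (1.14, adjusted p = 0.00654) and with limma voom on recovered reads (1.68, adjusted p = 0.00406). MYCL was lower in untreated Raji-4RH (-0.66, adjusted p = 5.6e-05). Its level is below that set for naming genes, and it was named after its values were seen. MLXIP, the Mondo partner of MLX, had 9.76 and 9.60 FPKM on average in untreated and treated Raji and 7.50 and 6.91 FPKM in Raji-4RH, and was not called with chidamide in either line. Without Raji-4RH chidamide replicate 2 its value in Raji-4RH was -0.27, which rests on 1 treated library. The treated libraries there differed (6.91 ± 1.2 FPKM, SD, n = 2), and their range overlapped that of the untreated ones. At baseline MLXIP was lower in Raji-4RH (-0.34, adjusted p = 0.0117), a call lost without Raji DMSO replicate 1 (adjusted p = 0.0712) or Raji-4RH DMSO replicate 2 (0.0682).

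Genes that textbooks list as activated by MYC mostly fell with chidamide in both lines. Of 36 such genes, 32 were tested, of which 28 fell and 1 rose in Raji-4RH, where 31.6% of all genes tested fell. In Raji 26 fell and the other 6 were not called, against 28.5% that fell among all genes tested, and the same 26 fell in both lines. The median log2 fold change of the list was -0.64 in Raji-4RH and -0.49 in Raji. The largest falls were in TFAP4 and TERT. TFAP4, an E-box factor that MYC induces, went from 10.4 ± 0.83 to 2.98 ± 0.13 FPKM in Raji (log2 fold change -1.51, adjusted p = 7e-07) and from 10.9 ± 0.023 to 2.42 ± 0.043 FPKM in Raji-4RH (-1.80, adjusted p = 1.2e-07). TERT, the telomerase reverse transcriptase, went from 3.54 ± 0.55 to 1.30 ± 0.025 FPKM in Raji (-0.98, adjusted p = 0.000577) and from 79.9 ± 2.0 to 17.7 ± 4.6 FPKM in Raji-4RH (-2.13, adjusted p = 3.0e-06). SRM, which makes the polyamine spermidine, fell by 0.96 in Raji and by 1.65 in Raji-4RH on the log2 scale.

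The gene of the list that rose in Raji-4RH was IMPDH2 of guanine nucleotide synthesis, at 0.52 (adjusted p = 2.9e-05), and in Raji it had 0.09 (adjusted p = 0.168). FBL, EIF4A1 and APEX1 were not called in Raji-4RH. Without Raji-4RH chidamide replicate 1, APEX1 had -0.27 and FBL -0.21 there, values that rest on 1 treated library. The treated Raji-4RH libraries lay at 156 ± 23 FPKM for APEX1 and 128 ± 18 FPKM for FBL (SD, n = 2). For both genes they overlapped the untreated ones. The sign of FBL in Raji-4RH turned after quantile normalization (0.20, adjusted p = 0.0275). For 16 of the 32 genes the effect was lower in Raji-4RH than in Raji and for 2 it was higher, whereas 21.7% of all genes tested had a lower and 27.2% a higher effect in Raji-4RH. Quantile normalization moved the median of all genes with chidamide in Raji-4RH from 0.093 to -0.022 and the split of called genes from 4642 higher and 3380 lower to 3718 higher and 4057 lower.

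Genes listed as repressed by MYC went the other way. Of 11, 7 were tested. All 7 rose in Raji-4RH (43.3% of all genes tested did) and 6 rose in Raji (31.5% of all), with list medians of 1.16 and 0.66. CDKN1A, which encodes the cell cycle inhibitor p21, rose from 10.4 ± 0.39 to 51.5 ± 0.12 FPKM in Raji (2.20, adjusted p = 2.1e-07) and from 30.7 ± 2.7 to 165 ± 5.6 FPKM in Raji-4RH (2.39, adjusted p = 4.3e-08). CDKN1B, which encodes p27, rose by 1.25 in Raji (adjusted p = 3.1e-06) and by 1.41 in Raji-4RH (adjusted p = 5.8e-07). GADD45A, a stress and growth arrest gene, rose by 0.50 in Raji (adjusted p = 0.000379) and by 1.42 in Raji-4RH (adjusted p = 4.8e-07), a difference of 0.92 (adjusted p = 0.000174).

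**Figure D4:**
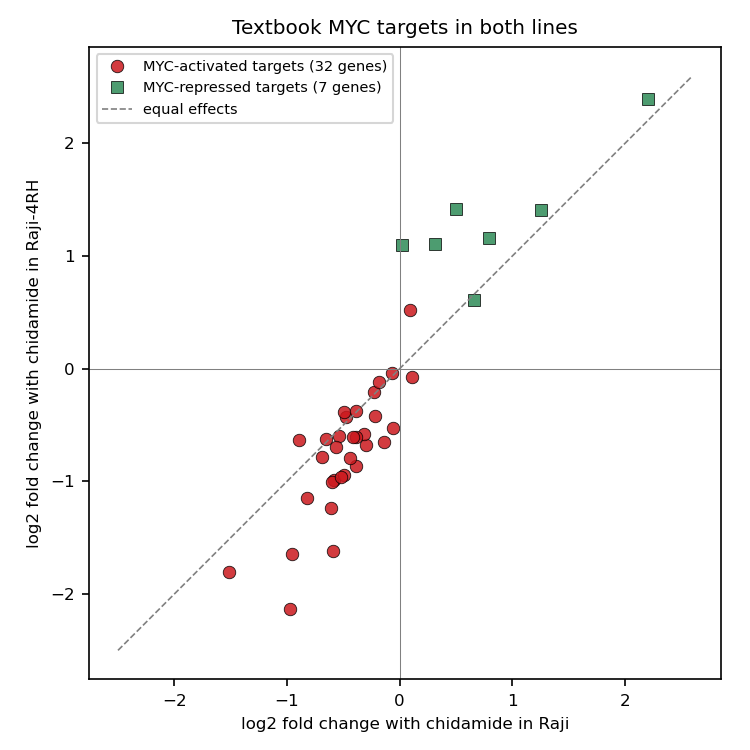
Log2 fold change with chidamide in Raji (x axis) and Raji-4RH (y axis) of 32 MYC-activated genes (red circles) and 7 MYC-repressed genes (green squares), 1 point per gene. The dashed line marks equal effects. Most circles lie at negative values on both axes, while the squares lie above 0 on the y axis.

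Between the untreated lines these lists were split. Of the 32 activated genes 12 were higher and 13 lower in Raji-4RH, and of the 7 repressed genes 3 were higher and 3 lower. TERT stood out at 79.9 FPKM in Raji-4RH against 3.54 FPKM in Raji (4.16, adjusted p = 5.1e-08), and TFRC, the transferrin receptor, was also higher in Raji-4RH (1.28, adjusted p = 2.3e-07). SRM (-1.92, adjusted p = 1.2e-06) and CAD, the first enzyme of pyrimidine synthesis (-1.22, adjusted p = 1.5e-06), were lower. CDKN1A was higher in Raji-4RH by 1.47, while GADD45A (-1.48) and CDKN1B (-1.10) were lower. MYC itself differed by 0.24 in the same comparison.

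Of 17 coactivators and other partners of MYC, all tested, 11 fell and 3 rose in Raji-4RH, with ZBTB17 among the rises. Of all genes tested, 31.6% fell and 43.3% rose there. In Raji 10 fell and 1, again ZBTB17, rose, beside 28.5% and 31.5% of all genes. WDR5, which helps MYC to bind chromatin, fell from 33.2 ± 0.86 to 21.0 ± 0.61 FPKM in Raji (-0.63, adjusted p = 2.1e-05) and from 27.0 ± 0.43 to 10.7 ± 0.34 FPKM in Raji-4RH (-1.26, adjusted p = 2.1e-07). KAT2A, an acetyltransferase also called GCN5, fell by 0.66 in Raji and by 0.71 in Raji-4RH, and SMARCB1, a chromatin remodeling subunit, by 0.64 and by 0.68. ZBTB17, or MIZ1, through which MYC represses genes, rose by 0.68 in Raji and 0.36 in Raji-4RH (adjusted p = 0.000124 and 0.00277).

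The SIN3 and histone deacetylase corepressor, the complex that the MXD proteins recruit, was split. Of 15 genes tested, 6 rose and 8 fell in Raji-4RH, and 4 rose and 6 fell in Raji. Of all genes tested, 43.3% rose and 31.6% fell in Raji-4RH, and 31.5% rose and 28.5% fell in Raji, so the count of rises is near that of genes in general in both lines. RBBP4, a histone chaperone, fell by 0.98 in Raji-4RH and by 0.66 in Raji (adjusted p = 7.8e-07 and 1.9e-05), and BRMS1 fell by 0.69 and by 0.31 (adjusted p = 8.9e-06 and 0.00183). HDAC1, a target of chidamide, went from 111 ± 1.3 to 154 ± 1.0 FPKM in Raji (0.48, adjusted p = 0.000141) and from 127 ± 1.4 to 112 ± 6.5 FPKM in Raji-4RH (-0.19, adjusted p = 0.0133). The fall in Raji-4RH turned to 0.09 after quantile normalization (adjusted p = 0.109). It was not called without Raji-4RH DMSO replicate 1 (-0.20, adjusted p = 0.0569) or 2 (-0.18, adjusted p = 0.0823), or in a fit of only the libraries compared (adjusted p = 0.0558).

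Among the partners of MGA in the Polycomb complex PRC1.6, 10 were tested, of which 4 fell and 2 rose in Raji-4RH and 6 fell and 2 rose in Raji. The falls stand beside 31.6% of all genes tested in Raji-4RH, which the count is near, and 28.5% in Raji. The rises stand beside 43.3% in Raji-4RH and 31.5% in Raji. PCGF6, its defining Polycomb ring finger subunit, fell from 13.3 ± 0.10 to 4.42 ± 0.17 FPKM in Raji-4RH (-1.40, adjusted p = 1.6e-07) and from 8.90 ± 0.34 to 5.69 ± 0.035 FPKM in Raji (-0.57, adjusted p = 5.2e-05). L3MBTL2 fell by 1.21 and by 0.78, and TFDP1, the E2F dimerization partner, by 1.02 and by 0.84 in Raji-4RH and Raji. In Raji-4RH, MGA rose (0.31) while these 3 subunits fell. The 2 that rose in each line were RYBP and RNF2, whose means are below the level set for naming genes. RYBP rose by 0.998 in Raji-4RH and by 0.72 in Raji (adjusted p = 1.7e-06 and 2.8e-05). RNF2 rose by 0.43 and by 0.62 (adjusted p = 0.000621 and 0.000127).

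Genes that set the stability of the MYC protein were also measured, although the protein was not. Of 15 tested, 4 rose and 7 fell in Raji-4RH, and 3 rose and 5 fell in Raji. Of all genes tested, 43.3% rose and 31.6% fell in Raji-4RH, and 31.5% rose and 28.5% fell in Raji. The count of falls in Raji is near that share. SKP2, a ubiquitin ligase subunit for MYC and p27, fell by 1.59 in Raji-4RH and by 0.93 in Raji (adjusted p = 1.9e-07 and 8.2e-06). PLK1, a mitotic kinase that stabilizes MYC, fell by 1.696 and by 0.74 (adjusted p = 2.7e-07 and 5.8e-05). AURKA, another mitotic kinase that binds MYC proteins, was higher in untreated Raji-4RH than in untreated Raji (1.35, adjusted p = 4.5e-06). With chidamide it fell by 1.46 in Raji-4RH and by 0.46 in Raji (adjusted p = 2.9e-06 and 0.00446).

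The targets of MLX and the Mondo factors gave 4 tested genes of 8, with 1 higher and 2 lower in Raji-4RH and 2 higher and 1 lower in Raji. Of all genes tested, 43.3% rose and 31.6% fell in Raji-4RH, and 31.5% rose and 28.5% fell in Raji. With 4 genes the counts cannot be told apart from these shares. ARRDC3, an arrestin that curbs glucose uptake, rose from 2.56 ± 0.46 to 16.7 ± 0.35 FPKM in Raji-4RH (2.32, adjusted p = 1.2e-07) and from 1.82 ± 0.062 to 6.43 ± 0.049 FPKM in Raji (1.40, adjusted p = 4.1e-06). HK2, hexokinase of the first step of glycolysis, fell by 1.21 in Raji-4RH and by 0.23 in Raji (adjusted p = 3.1e-07 and 0.00605). The value of HK2 in Raji was not called after quantile normalization (-0.14, adjusted p = 0.113) or without Raji chidamide replicate 1 (-0.20, adjusted p = 0.0589).

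Among the 5 genes whose pattern over the 8 libraries was most like that of MYC, of 6613 searched, were IPO13, SLC9A3R1, ZNF335 and TM9SF4. Likeness was the root mean square difference of log2(FPKM + 1) after each gene's own mean was taken off, and it was 0.038 to 0.058 for these 4, while MYC itself had an SD of 0.13 over the libraries. For MXD4 the nearest 3 were ATP2B4, TUBA1A and CAPG, at 0.173 to 0.213.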

How the data were processed

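RNA-seq libraries of flow-sorted cells were, per the labels, prepared using NEBNext Ultra reagents for an Illumina HiSeq X instrument, and 8 were analyzed here. FPKM, computed by the authors for every gene, was deposited as 1 table with gene lengths. The submitters' processing notes name HISAT2 2.0.5, SAMtools 1.7, HTSeq 0.9.1 and DESeq2 1.22.2 with hg38 (GRCh38), without their roles. FPKM multiplied by gene length and library total gave whole reads for 100% of non-zero values (tolerance 0.05 reads).

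The table has 63967 labels but values in 63305 rows, and its last 662 rows repeat the first 662. From a first stretch without shift, values lie up to 14 rows below their labels, and the shifts worked out in an earlier analysis of this table were used for the first 18171 labels, which placed 90.7% to 93.2% of the reads. FPKM was rescaled to the length of the gene. For MYC, the reads ran from 6337 to 12562 in the placed row and from 1162 to 1976 in the row of the label. Abundant genes near MYC and MGA, chosen after the values were seen, illustrate the shift, such as RPL35 (20990 to 27522 reads when placed, 292 to 517 in the row of its label). They do not test the shifts of genes elsewhere in the table.

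Testing took the 10710 genes that reached 1 FPKM in 2 or more libraries. The model was limma 3.58.1 in R 4.3.3 (lmFit, then eBayes with a trend), fitted once to log2(FPKM + 1) of the 8 libraries, a scale on which changes of low genes are understated. With 2 libraries against 2, the calls rest on the spread limma shares between genes. The script was tested on simulated data. Exons and positions are from GENCODE v29 and promoters from RefSeq. Tables and plots were made with Python 3.11.15, pandas 2.3.3, numpy 2.4.6 and matplotlib 3.10.9. The members, the gene lists and the tests were chosen with earlier results of these data known. Genes named from a list were called in both lines and were among the 2 largest rises or falls of a comparison whose mean reached 5 FPKM and whose groups did not overlap. Exceptions, named after their values were seen, are MYCL, MLXIP, MYCN, MLXIPL, RYBP, RNF2, IMPDH2, FBL, EIF4A1 and APEX1. Some genes that the rule selects are not reported here.

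Alternatives were a pseudocount of 0.1, other filters, quantile normalization, median-centred libraries, limma without trend, only the libraries compared, a replicate block, limma voom on recovered reads, the rows as deposited, and leaving out each library. A crossed pairing of the DMSO libraries was added after seeing the data.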

Additional observations from a re-analysis of the deposited data

Results flagged for a closer look

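MXD4 was listed because the effect of chidamide differed between the lines: its log2 fold change was larger in Raji-4RH than in Raji by 1.58 (SE 0.10, limma adjusted p = 1.8e-05). The level was 3.31 ± 0.21 FPKM in untreated and 18.9 ± 0.50 FPKM in treated Raji-4RH, and 7.40 ± 0.66 and 11.98 ± 0.69 FPKM in Raji (SD, n = 2). With 2 libraries per group, single outlying libraries were not searched for.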

How the results depend on the processing

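MXD4 kept its direction and its call in every alternative run: its log2 fold change was 2.13 to 2.51 in Raji-4RH, 0.55 to 0.71 in Raji, 1.4999 to 1.82 for the difference of the effects and -1.15 to -0.88 between the untreated lines. The number of members whose effect differed between the lines was 1, and it was 2 with quantile normalization, with median-centred libraries, in limma without trend and in the rows as deposited, and 1 to 3 when each library was left out. Leaving out Raji-4RH chidamide replicate 2 gave 3, and leaving out Raji DMSO replicate 2 gave 2. With the replicate number as a block, 6, 6, 1 and 6 members were called with chidamide in Raji-4RH, in Raji, for the difference of the effects and between the untreated lines, as without it. Same-numbered libraries deviated together in no regular way (r from -0.279 to 0.166 over genes). These correlations cannot show whether same-numbered libraries were handled together. A crossed pairing of the DMSO libraries called 7 members. A fit of only the libraries compared gives no difference of effects. Over all alternatives and comparisons, single members kept their side of the threshold in 547 cases, lost a call in 9, gained one in 18 and turned in 2. For the list genes named, with RYBP and RNF2 left out, these counts were 1964, 44, 38 and 18. A turn was counted only where the main fit or the alternative made a call. Uncalled values that changed sign were therefore counted among those that kept their side. The number of genes called in a list moved by over 1.5 times in 113 of the cases run.

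Taking the rows as deposited gives a shifted label the reads of another gene, and it turned directions. There MYC had -0.19 in Raji (adjusted p = 0.0212) and MGA 0.10 between the untreated lines. In Raji-4RH, RBBP4 had 1.48, TFDP1 0.65, SKP2 0.50 and PLK1 0.68. In Raji, RBBP4 had 0.025, BRMS1 0.28, PCGF6 0.18, SKP2 0.33 and PLK1 0.18. For the difference of effects, RBBP4 had 1.46, TFDP1 0.81, SKP2 0.18 and PLK1 0.50. Between the untreated lines, PCGF6 had -0.34, TFDP1 -0.30 and PLK1 0.32. Quantile normalization turned HDAC1 (0.088) and FBL (0.20) in Raji-4RH, and the cause was not tested. Depth limits MXD1 most, with 129 to 528 reads per library.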
